A study of Mus musculus with 3 samples.

Results

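The genes described here are 9 genes that mark the germinal center (GC) B cell: *Mef2b*, *Mybl1*, *Nuggc*, *Rassf6*, *Rgs13*, *Efnb1*, *Hpse*, *Basp1* and *Gcsam*. They were taken by symbol from the 32285 genes counted, and all 9 were found. Their RNA was followed in single splenic B cells collected 10 days after 1 injection of sheep red blood cells (SRBCs), an antigen that induces GCs. There was 1 library of each genotype. The 3′RR-*BCL2* mouse carries a randomly inserted human *BCL2* cassette, with the P1/P2 promoter region of *BCL2*, under a core version of the 3′ regulatory region (3′RR) of the IgH locus. The Igκ-*BCL2* mouse carries the same cassette as a knock-in that takes the place of the Jκ segments of the Igκ locus. The WT mouse carries neither, and all were of a mixed B6/129 background. The methods of the study describe the 3 sets as B cells sorted magnetically by negative selection, while the sample labels call only the WT set sorted and name whole tissue for both *BCL2* sets. The study describes the mice of both *BCL2* models in general as hemizygous. Age and the number of mice per library are not given for these libraries, and human *BCL2* RNA was not analysed here.

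GCs are sites in lymphoid follicles where B cells that have met antigen divide, mutate their antibody genes and compete for help from T cells. MEF2B is a transcription factor that acts upstream of BCL6, the master regulator of the GC program, and MYBL1 (A-MYB) is a transcription factor of dividing GC cells. NUGGC (SLIP-GC) is a nuclear GTPase of GC B cells, RASSF6 belongs to the Ras-association domain family, and RGS13 damps signals from G protein-coupled receptors, among them chemokine receptors. EFNB1 (ephrin-B1) is a membrane ligand that GC B cells show to follicular helper T cells, and HPSE (heparanase) is an enzyme that cleaves heparan sulfate chains. BASP1 is a myristoylated protein of the inner cell membrane and nucleus, and GCSAM is a membrane-bound adaptor that modulates B cell receptor signaling and motility in GC cells.

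By the annotation of GRCm38 all 9 are protein-coding genes. *Mybl1* (9667415 to 9700209) and *Rgs13* (144138654 to 144177372) lie on the minus strand of chromosome 1, and *Rassf6* (90603076 to 90640657) and *Hpse* (100679484 to 100719716) on that of chromosome 5. *Mef2b* lies on chromosome 8 (70139711 to 70167488), *Nuggc* on chromosome 14 (65598546 to 65648531), *Basp1* on chromosome 15 (25363277 to 25413764), *Gcsam* on chromosome 16 (45610380 to 45622867) and *Efnb1* on the X chromosome (99136130 to 99148991). *Mef2b* shares 62 of its 1404 exonic bases with *Borcs8* on the same strand, so that reads there cannot be assigned to either gene. RefSeq promoter windows of 300 bases around the start site (GRCm38.p6) were at hand for 7 of the 9 genes, all but *Mybl1* and *Nuggc*. Of 7 short motifs searched on both strands, 3 were found in these windows. The octamer ATGCAAAT, bound by OCT factors of B cells, was found in the window of *Mef2b* and in 1.74% of 32851 promoters. The MYB motif AACNGTT was found in that of *Rgs13* and in 4.45% of promoters. The E-box CAGGTG was found in those of *Mef2b* and, at 2 places, *Rassf6*, and in 20.2% of promoters. A MEF2 motif (3.69% of promoters), TTCCTAGAA for BCL6 (0.411%), TTTCCCGC for E2F (1.07%) and a palindromic EBF1 motif (0.904%) were found in none of the 7, and no match overlapped another. The 2 stretches that hold the rarer motifs are shown, since they are the ones among the 7 windows with a motif of a B cell or GC transcription factor other than the common E-box. Capitals mark the octamer in *Mef2b* (chr8:70152656-70152703, plus strand) and the MYB motif in *Rgs13* (chr1:144177439-144177485, minus strand), and a match of letters is not a measured binding site. The window of *Mef2b* (70152511 to 70152810) lies inside the gene as annotated, so its RefSeq start site is not the annotated 5′ end.
Mef2b: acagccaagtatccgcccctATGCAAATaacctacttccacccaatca
Rgs13: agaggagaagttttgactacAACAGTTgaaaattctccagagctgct
The window of *Rgs13* had 36.7% G and C, that of *Basp1* 78.0%, and the median of all promoters was 52.7%.

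The libraries held 7579 barcodes for 3′RR-*BCL2*, 7034 for Igκ-*BCL2* and 11269 for WT, with 45539172, 37433924 and 62777659 unique molecular identifiers (UMIs), each of which stands for 1 captured RNA molecule. After the filters of the study, 6561, 6243 and 9932 B-lineage cells remained, with median depths of 5291, 4838 and 5031 UMIs per cell. Between 15 and 24 cell barcodes were shared by any pair of libraries, and none was that of a GC-like cell in both. *Xist*, an RNA of female cells, was at 1719 UMIs per 1000000 UMIs in 3′RR-*BCL2*, 0.174 in Igκ-*BCL2* and 0.156 in WT, while the Y-linked *Ddx3y* was at 0.0249, 192 and 202. Sex and genotype can therefore not be told apart for 3′RR-*BCL2*, and *Efnb1* is X-linked. With 1 library of each genotype no test was possible. The ranges in parentheses are exact 95% intervals, Poisson for levels and ratios and Clopper-Pearson for shares of cells, and they cover counting error only, not the difference between mice. Where no cell held a UMI, the share that 3 cells would make up is given in place of an interval. The B-lineage cells held 70.3%, 79.5% and 54.9% of all UMIs of the 9 genes in the files, and the rest lay in barcodes that the filters remove.

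Cells were clustered with the settings of the study, without the 9 genes, so that none of them could shape the clusters. Of the 9 clusters and subclusters, 3 met the rule for GC-like cells, that at least 50% of cells hold a UMI of *S1pr2*, *Eaf2* or *Fas*, which was set after the clusters were seen. They held 408 of 6561 cells (6.22%, 5.65 to 6.83) in 3′RR-*BCL2*, 237 of 6243 (3.80%, 3.34 to 4.30) in Igκ-*BCL2* and 123 of 9932 (1.24%, 1.03 to 1.48) in WT. One had *S1pr2*, a receptor that holds B cells in the GC, and *Eaf2* among its leading genes (281 cells, 98.6% with a UMI of the 3 genes) and is called *S1pr2*-rich. One was led by *Jchain*, the joining chain of secreted antibodies (292 cells, 90.8%), and one by *Pclaf*, *Mki67* and other genes of dividing cells (195 cells, 79.5%), which had no GC marker among its 10 leading genes, although 8 of 10 GC markers were higher in it than in all other cells. The dividing subcluster held 112 of the GC-like cells in 3′RR-*BCL2*, 25 in Igκ-*BCL2* and 58 in WT. The *Jchain*-led subcluster held 150, 120 and 22, and the *S1pr2*-rich one 146, 92 and 43. In the 6 clusters outside the class, 10.4 to 17.6% of cells held a UMI of those 3 genes. They were a largest cluster of 15448 cells led by *Lyz2*, 1780 cells led by *Gm42418*, and clusters of marginal zone-like (919), IFN-activated-like (1146), pre-centroblast-like (1218) and transitional-like cells (1457). In the largest cluster 9 of 9 markers of resting follicular B cells were higher than in all other cells, and 4 of 8 macrophage and neutrophil markers were. In the *Jchain*-led subcluster 9 of 10 GC markers were higher, and 10 of 12 plasma cell markers. *Bcl6* in WT was at 115 UMIs per 1000000 in *S1pr2*-rich, 35.1 in *Jchain*-led and 59.0 in dividing cells, against 44.6 in the largest cluster. By *Bcl6* the *Jchain*-led and dividing cells of WT thus did not stand out, while by *S1pr2* (30.1 and 45.7 against 0.418) they did. The size of the class hung on the processing. With a first pattern for ribosomal protein genes, which missed 4 of 101 such genes, it held 743, 368 and 156 cells, and without integration of the libraries 1152, 625 and 165. The pattern entered the cell filter and also the ribosomal share that was regressed out before clustering. In the filter itself it left 6565, 6253 and 9948 cells in place of 6580, 6259 and 9956, counted before *Cd3* and *C1q* cells were removed. GC-like cells were deeper than the others, with median depths of 8746.5, 8636 and 9466 UMIs in 3′RR-*BCL2*, Igκ-*BCL2* and WT against 5186, 4746 and 5015 outside the class. Markers of T cells stayed at 1.39 to 3.19 UMIs per 1000000 in GC-like cells, macrophage markers at 0 to 1.66, and no NK cell marker was seen there. The 4 erythroid markers were at 47.3, 37.2 and 19.9 in GC-like cells against 16.2, 11.3 and 8.36 outside, the 12 plasma cell markers at 2291, 3672 and 1943 against 714, 897 and 635, and the 8 B-1 markers at 220, 163 and 477 against 505, 417 and 635. The part of these cells in the results was not tested.

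All 9 genes were higher in GC-like cells than in the other B-lineage cells of the same library, in each of the 3 libraries, but the contrast differed in size between the libraries. Levels are UMIs per 1000000 UMIs of the same cells. Summed over the 9 genes, the log2 ratio of GC-like cells to the rest was 3.41 (3.36 to 3.47) for the 3′RR-*BCL2* library, 3.97 (3.90 to 4.05) for the Igκ-*BCL2* library and 5.25 (5.16 to 5.35) for WT. The order of these contrasts hung on the class, since with a class of all cells with UMIs of at least 2 of 10 GC markers, which takes in over 50% of the cells of each library, they were 2.69, 2.59 and 1.24, and WT had the smallest. In each library 9 of 9 genes were more than 2-fold higher, as were 11.3% of all genes with at least 20 UMIs in 3′RR-*BCL2*, 10.1% in Igκ-*BCL2* and 13.2% in WT. The median log2 ratio of the 9 was 3.39, 4.06 and 6.43, beside 0.01, −0.02 and −0.03 over all genes. These genes were known as GC genes, and the class was drawn from genes that go with them, so that these values describe the class and test nothing. The plot of levels shows that the GC-like levels of the libraries lay close together while those outside the class lay far apart.

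**Figure D1:**
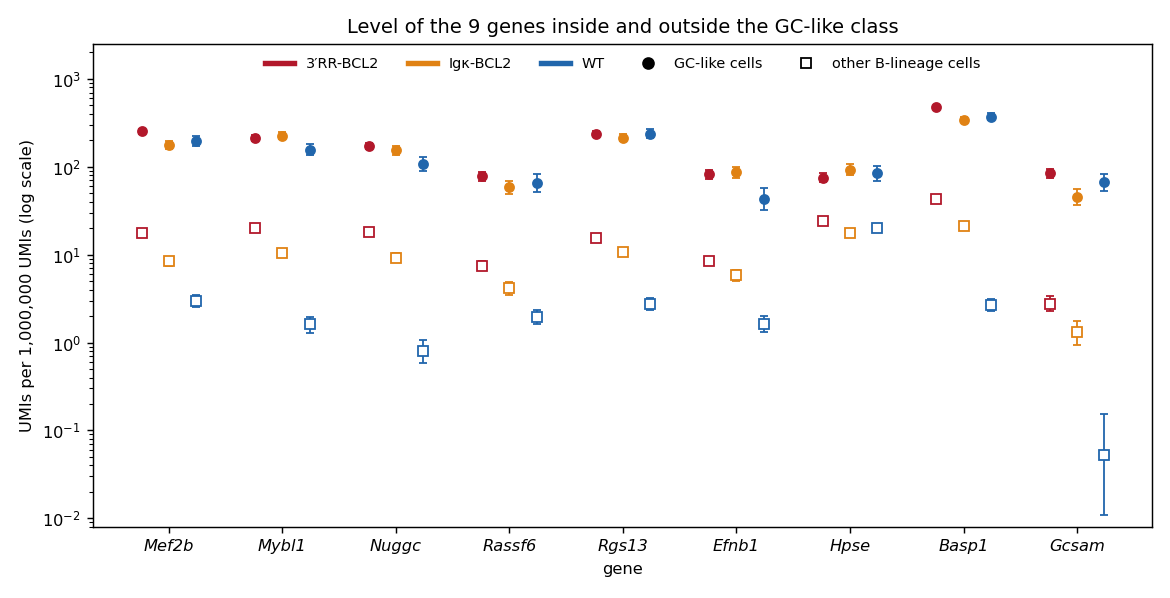
UMIs per 1000000 UMIs (log axis) of each gene in GC-like cells (filled circles) and in other B-lineage cells (open squares) of the 3′RR-*BCL2*, Igκ-*BCL2* and WT libraries, with exact 95% Poisson intervals that cover counting error only. Outside the class, 8 of the 9 genes were lowest in WT, while *Hpse* lay between 17.8 and 24.1 in all 3 libraries.

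Among the transcription factors, *Mef2b* was at 252 (237 to 269) UMIs per 1000000 in GC-like cells of 3′RR-*BCL2*, 178 (161 to 197) in those of Igκ-*BCL2* and 199 (174 to 225) in WT. Outside the class *Mef2b* was at 17.8, 8.46 and 2.99, which gave log2 ratios of 3.83, 4.39 and 6.05. *Mybl1* was at 213 (199 to 229) in GC-like cells of 3′RR-*BCL2*, 227 (207 to 248) in those of Igκ-*BCL2* and 156 (135 to 180) in WT. It is the transcription factor with the larger difference between the libraries outside the class, where it was at 20.3, 10.5 and 1.61 and the log2 ratios were 3.39, 4.44 and 6.60. To compare shares of cells at 1 depth, each cell was thinned to 2000 UMIs, which left 400, 235 and 121 GC-like cells. A UMI of *Mef2b* was then seen in 37.0% (32.3 to 41.9), 23.8% (18.5 to 29.8) and 30.6% (22.5 to 39.6) of GC-like cells, and one of *Mybl1* in 32.2% (27.7 to 37.1), 40.4% (34.1 to 47.0) and 24% (16.7 to 32.6). The libraries thus came in a different order for the 2 factors, with Igκ-*BCL2* lowest for *Mef2b* and highest for *Mybl1*, while the intervals of the *BCL2* libraries overlapped with that of WT for *Mef2b*. Transitional-like cells, young B cells, were taken for comparison. They were not free of GC genes, since 17.6% of them held a UMI of *S1pr2*, *Eaf2* or *Fas*, against 10.4 to 16.8% in the other clusters outside the class. In 3′RR-*BCL2* their *Mef2b* level was 11.8 UMIs per 1000000, beside 17.3 in the largest cluster. *Mef2b* was seen in 6 of 373 thinned transitional-like cells of 3′RR-*BCL2* (1.61%), 0 of 318 of Igκ-*BCL2* (3 cells would be 0.943%) and 1 of 751 of WT (0.133%). Their median depths before thinning were 5695, 5159.5 and 5768 UMIs.

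*Nuggc*, the GTPase gene, was at 172 (159 to 186), 154 (138 to 172) and 108 (90.3 to 128) UMIs per 1000000 in GC-like cells of 3′RR-*BCL2*, Igκ-*BCL2* and WT. Outside the class *Nuggc* was at 17.9, 9.23 and 0.797, and its WT level came from 45 UMIs in 9809 cells. The log2 ratios were 3.26, 4.06 and 7.08. *Rassf6* was at 77.8 (69.2 to 87.3), 58.5 (48.8 to 69.7) and 65.7 (52.0 to 81.8) in GC-like cells and at 7.49, 4.15 and 1.97 outside them. *Rgs13*, the brake on chemokine signals, was at 239 (224 to 255), 214 (195 to 235) and 237 (210 to 266) in GC-like cells, and these intervals overlapped in all 3 libraries. Outside the class *Rgs13* was at 15.5, 10.8 and 2.74. In thinned GC-like cells *Nuggc* was seen in 27.8%, 27.2% and 17.4%, *Rassf6* in 12.8%, 11.9% and 13.2%, and *Rgs13* in 33.5%, 26.4% and 28.9% of cells. In thinned transitional-like cells *Nuggc* was seen in at most 1.61% and *Rassf6* in at most 1.07% of the cells of a library. *Rgs13* was seen there in 19 of 373 cells (5.09%) of 3′RR-*BCL2*, 5 of 318 (1.57%) of Igκ-*BCL2* and 21 of 751 (2.80%) of WT, against 2.35%, 1.55% and 0.446% of all cells outside the class, so that transitional-like cells are no measure of its background.

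*Efnb1*, the ephrin gene, was at 82.1 (73.2 to 91.7) UMIs per 1000000 in GC-like cells of 3′RR-*BCL2*, 86.9 (74.9 to 100.2) in those of Igκ-*BCL2* and 43.2 (32.3 to 56.7) in WT, and both *BCL2* intervals lay above that of WT. Outside the class it was at 8.45, 5.86 and 1.65. *Hpse*, the heparanase gene, had the smallest contrast of the 9, with 75.4 (66.9 to 84.7), 92.9 (80.5 to 107) and 84.8 (69.1 to 103) in GC-like cells against 24.1 (22.5 to 25.8), 17.8 (16.4 to 19.4) and 20.4 (19.2 to 21.6) outside. Its log2 ratios were 1.65 (1.45 to 1.84), 2.38 (2.14 to 2.61) and 2.06 (1.75 to 2.35). Its level outside the class was thus 32.0%, 19.2% and 24% of that in GC-like cells, while that of the 9 genes together was 9.38%, 6.38% and 2.62%. *Basp1*, which codes for the membrane protein BASP1, was at 475 (454 to 498), 344 (319 to 369) and 371 (337 to 407) in GC-like cells and at 42.5, 21.2 and 2.69 outside them. In thinned cells *Basp1* was seen in 55.2%, 44.3% and 47.1% of GC-like cells and in 5.77%, 3.13% and 0.384% of the other cells. *Gcsam*, the adaptor gene, was at 84.5 (75.4 to 94.3), 45.5 (37.0 to 55.5) and 67.3 (53.5 to 83.7) in GC-like cells. Outside the class *Gcsam* had 101 UMIs in 3′RR-*BCL2*, 42 in Igκ-*BCL2* and 3 in WT, and its log2 ratios were 4.93 (4.6 to 5.27), 5.13 (4.59 to 5.69) and 10.31 (8.71 to 12.62). After thinning it was seen in 0 of 9633 WT cells outside the class (3 cells would be 0.0311%). By these ratios *Gcsam* had the largest contrast of the 9 in WT, and *Hpse* the smallest in all 3 libraries. In thinned transitional-like cells *Hpse* was seen in 3.49%, 4.09% and 4.79% of cells and in 4.25%, 3.52% and 3.78% of all cells outside the class, so that transitional-like cells are no measure of the background of *Hpse* either. *Basp1* was seen in transitional-like cells in 4.02%, 0.943% and 0.133%, *Efnb1* in at most 0.943% and *Gcsam* in none.

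Within GC-like cells the question was whether a *BCL2* allele went with another level of these genes per unit of RNA. Summed over the 9 genes, the log2 ratio over WT was 0.33 (0.25 to 0.41) for 3′RR-*BCL2* and 0.07 (−0.01 to 0.16) for Igκ-*BCL2*. None of the 9 was counted as 2-fold higher or lower in either library, beside 2.71% of genes higher and 2.88% lower in 3′RR-*BCL2* and 4.26% higher and 4.93% lower in Igκ-*BCL2*. *Efnb1* came nearest, with log2 ratios of 0.93 (0.50 to 1.38) for 3′RR-*BCL2* and 1.01 (0.56 to 1.48) for Igκ-*BCL2*, the second of which falls under 2-fold once 0.5 is added to each sum, as was done for the count. *Nuggc* was higher than in WT by 0.67 (0.40 to 0.95) and 0.51 (0.22 to 0.82) and *Mybl1* by 0.45 (0.22 to 0.69) and 0.54 (0.29 to 0.79). *Mef2b* and *Basp1* were higher in 3′RR-*BCL2* alone by counting error, by 0.35 (0.14 to 0.56) and 0.36 (0.21 to 0.51), and had ratios of −0.16 (−0.40 to 0.08) and −0.11 (−0.28 to 0.06) in Igκ-*BCL2*. *Gcsam* was lower in Igκ-*BCL2* (−0.56, −1.0 to −0.12) and at 0.33 (−0.03 to 0.70) in 3′RR-*BCL2*. The intervals of *Rassf6*, *Rgs13* and *Hpse* included no difference in either library, and for *Rgs13* they allow at most 0.21 in 3′RR-*BCL2* and at least −0.36 in Igκ-*BCL2*. The direct ratio of 3′RR-*BCL2* to Igκ-*BCL2* was 0.26 (0.19 to 0.32) over the 9 genes and largest for *Gcsam* (0.89, 0.56 to 1.23).

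These ratios moved with the makeup of the class. The 12 genes of dividing cells were at 4421 UMIs per 1000000 in GC-like cells of 3′RR-*BCL2*, 2185 in Igκ-*BCL2* and 4785 in WT. Without the dividing subcluster, an alternative chosen after the data were seen, the summed log2 ratio to WT was 0.07 (−0.02 to 0.17) for 3′RR-*BCL2* and −0.25 (−0.35 to −0.15) for Igκ-*BCL2*. The makeup still differed then, with 150 *Jchain*-led cells of 296 in 3′RR-*BCL2*, 120 of 212 in Igκ-*BCL2* and 22 of 65 in WT. In *S1pr2*-rich cells the ratios were −0.08 (−0.19 to 0.03) and −0.24 (−0.36 to −0.12), and in dividing cells 0.74 (0.59 to 0.88) and 0.86 (0.67 to 1.05). In *Jchain*-led cells they were 0.96 (0.73 to 1.21) and 0.49 (0.25 to 0.74), from 22 WT cells. Whether the subclusters differed in these ratios was not tested. *Rgs13*, whose intervals overlapped in the whole class, came in another order in its parts. In *S1pr2*-rich cells it was at 257 UMIs per 1000000 in 3′RR-*BCL2*, 209 in Igκ-*BCL2* and 372 in WT, and in dividing cells at 240, 420 and 160. *Efnb1* was at 94.5, 92.9 and 79.4 in *S1pr2*-rich cells but at 67.3, 51.5 and 11.4 in dividing cells, where WT had 6 UMIs. *Nuggc* was higher than in WT also in *S1pr2*-rich cells, by 0.68 (0.27 to 1.11) for 3′RR-*BCL2* and 0.68 (0.25 to 1.13) for Igκ-*BCL2*, and *Mybl1* was so by 0.35 (0.03 to 0.68) for Igκ-*BCL2*, while its ratio for 3′RR-*BCL2* was −0.21 (−0.53 to 0.12). Set against *S1pr2*-rich cells of the same library, dividing cells had a summed log2 ratio of −0.21 for 3′RR-*BCL2*, 0.08 (−0.08 to 0.24) for Igκ-*BCL2* and −1.02 (−1.18 to −0.86) in WT. *Gcsam* was low in *Jchain*-led cells of every library, at 27.8, 22.6 and 5.02 against 93.8, 62.0 and 107 in *S1pr2*-rich cells.

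**Figure D2:**
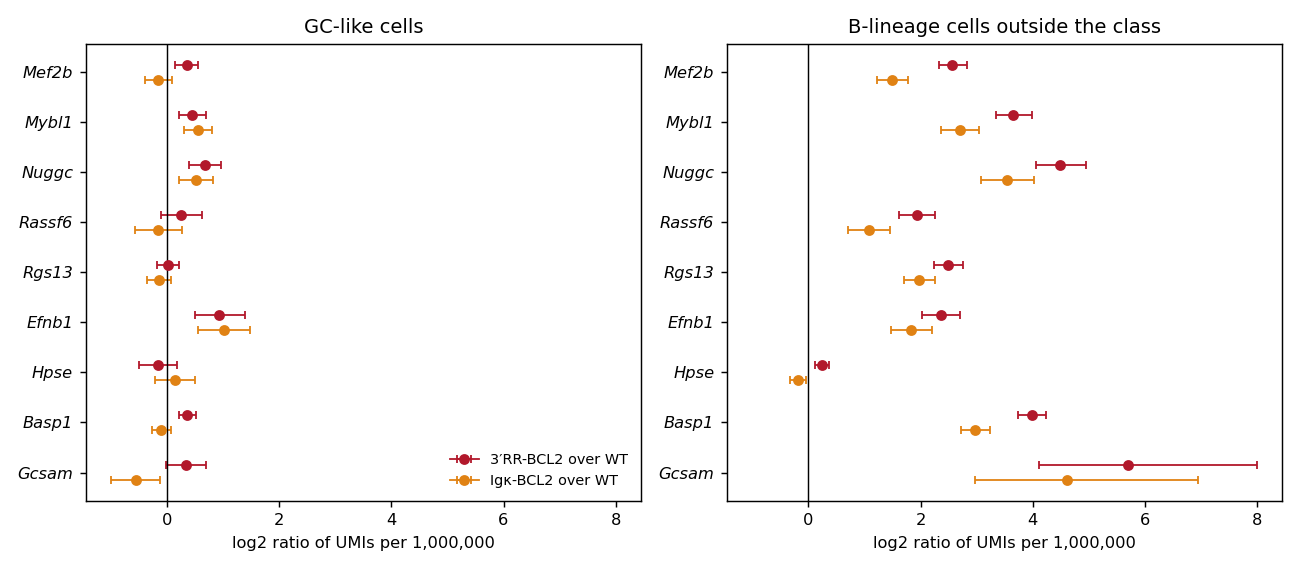
Log2 ratio of UMIs per 1000000 of 3′RR-*BCL2* and of Igκ-*BCL2* to WT for each gene, in GC-like cells (left) and in B-lineage cells outside the class (right), with exact 95% intervals that cover counting error only. In GC-like cells the points lie between −0.56 and 1.01, and outside the class 8 of the 9 genes lie at 1.08 or above in both *BCL2* libraries, with *Hpse* at 0.24 and −0.19.

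Outside the GC-like class drawn from the clusters, the 9 genes differed far more between the libraries than within it. The summed log2 ratio to WT was 2.17 (2.09 to 2.24) for 3′RR-*BCL2* and 1.36 (1.27 to 1.44) for Igκ-*BCL2*. In both, 8 of the 9 genes were more than 2-fold higher, beside 2.45% of all genes tested for 3′RR-*BCL2* and 4.75% for Igκ-*BCL2*. The 2 comparisons share the WT library. The ratios were 4.49 (4.05 to 4.96) and 3.53 (3.08 to 4.02) for *Nuggc*, 3.98 (3.74 to 4.23) and 2.98 (2.72 to 3.24) for *Basp1*, and 3.66 (3.34 to 3.99) and 2.70 (2.36 to 3.05) for *Mybl1*. These are a nuclear GTPase, a membrane protein and a transcription factor, so that the high ratios were not those of 1 kind of protein. *Gcsam* was at 5.71 (4.12 to 8.01) and 4.61 (2.97 to 6.95), from the 3 UMIs of WT. *Mef2b*, *Rgs13*, *Efnb1* and *Rassf6* lay between 1.93 and 2.57 in 3′RR-*BCL2* and between 1.08 and 1.97 in Igκ-*BCL2*. *Hpse* was the exception, at 0.24 (0.11 to 0.37) for 3′RR-*BCL2* and −0.19 (−0.34 to −0.05) for Igκ-*BCL2*. Between the *BCL2* libraries all 9 genes were higher in 3′RR-*BCL2*, by log2 ratios of 0.43 (*Hpse*) to 1.09 (*Gcsam*).

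Cells with other GC genes were also more frequent outside the class of the *BCL2* libraries. *S1pr2* was at 7.27, 3.25 and 0.655 UMIs per 1000000 there, and 18.2%, 12.6% and 7.37% of the thinned cells counted outside held a UMI of *S1pr2*, *Eaf2* or *Fas* at full depth. Without all cells with such a UMI, an alternative chosen after the data were seen, the summed log2 ratio to WT was 1.20 (1.11 to 1.29) for 3′RR-*BCL2* and 0.76 (0.66 to 0.86) for Igκ-*BCL2*, with 8 and 5 genes over 2-fold (1.64% and 4.44% of all genes). *Basp1*, *Nuggc* and *Mybl1* were still at 2.88, 3.49 and 2.64 in 3′RR-*BCL2* and at 2.61, 2.72 and 1.74 in Igκ-*BCL2*, while *Hpse* was at 0.02 (−0.13 to 0.17) and −0.40 (−0.57 to −0.23). A class made without integration of the libraries left ratios of 0.92 and 0.41 outside it, and one of all cells with at least 2 of 10 GC markers, over 50% of cells in each library, left 0.90 and 0.33. How far GC cells outside the class, or RNA set free by them, made up the rest was not tested. The few cells taken out for at least 2 UMIs of *Cd3* genes, which should not use the program, held 59 UMIs of the 9 genes in 14 cells of 3′RR-*BCL2* (657 per 1000000, 501 to 848), 9 in 16 cells of Igκ-*BCL2* (75.7, 34.6 to 144) and 5 in 18 cells of WT (43.4, 14.1 to 101). All kept B-lineage cells, GC-like ones included, held 299, 171 and 61.9 per 1000000. Whether doublets with B cells were among the cells with *Cd3* UMIs was not tested. Fewer cells with a gene and less RNA of it per cell can be told apart only in part here, since most cells with a gene held 1 UMI of it after thinning.

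By cluster, the summed log2 ratio to WT was 2.34 for 3′RR-*BCL2* and 1.48 for Igκ-*BCL2* in the largest cluster, 3.17 and 2.60 in *Gm42418*-led cells, 2.19 and 0.68 in pre-centroblast-like, 1.21 and −0.13 in transitional-like, 0.89 and 0.05 in marginal zone-like and 0.74 and 0.39 in IFN-activated-like cells. In Igκ-*BCL2* the intervals of the last 3 included no difference. *Hpse* made up 40.4% (pre-centroblast-like) to 84.1% (marginal zone-like) of the summed UMIs in these WT clusters. Over genes with at least 20 UMIs, the median log2 ratio for 3′RR-*BCL2* was 3.74 in the largest cluster. It was 2.47 in transitional-like (7 genes) and 2.11 in marginal zone-like cells (2 genes). For Igκ-*BCL2* these medians were 2.58, −0.16 (3 genes) and −0.66 (1 gene). *Gm42418*-led cells are of low depth, with a median of 3606 UMIs, and 6 of 10 GC markers were higher in them than in all other cells. *Basp1* was at 99.0, 53.4 and 6.39 UMIs per 1000000 in these cells and at 73.8, 21.4 and 6.82 in pre-centroblast-like cells, activated B cells with genes of growth. In WT, *Rgs13* was at 15.2 in transitional-like and 6.41 in pre-centroblast-like cells against 0.975 in the largest cluster, log2 ratios of 3.96 (3.36 to 4.58) and 2.72 (1.97 to 3.46). In transitional-like cells of 3′RR-*BCL2* and Igκ-*BCL2* it was at 23.3 and 13.4, beside 15.2 and 10.3 in their largest clusters. *Basp1* was also higher in WT pre-centroblast-like cells, against 2.03 in the largest cluster of WT. *Nuggc* was at 1.45 and 1.24 in WT transitional-like and pre-centroblast-like cells against 0.585, from 7 and 6 UMIs. *Hpse* ranged from 10.9 to 37.2 in all clusters and libraries outside the class, and was at 37.2, 18.9 and 30.2 in marginal zone-like cells. *Gcsam* had no UMI in WT cells of 4 of the 6 clusters.

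**Figure D3:**
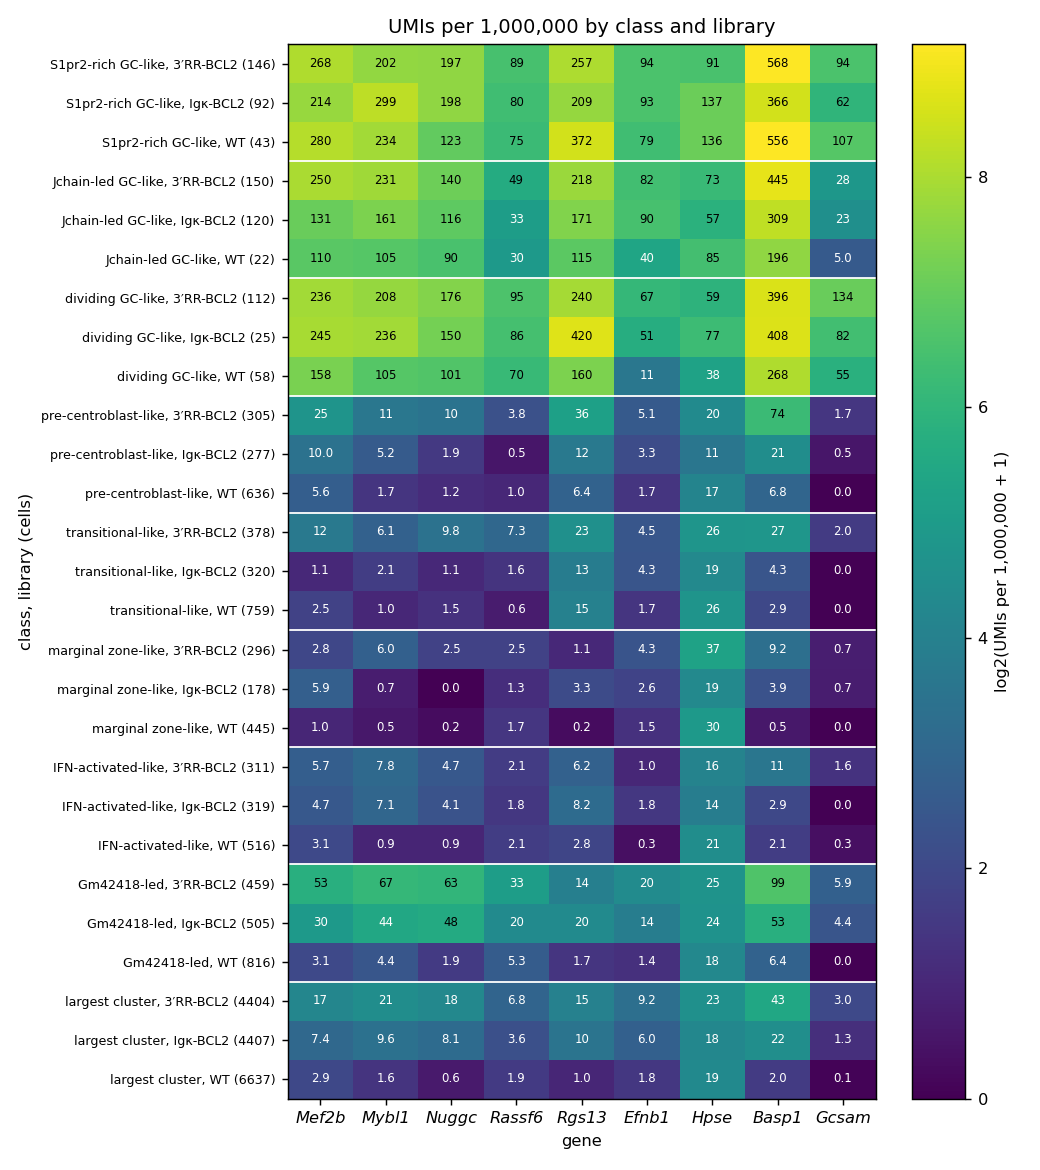
UMIs per 1000000 UMIs of each gene (columns) in each class and library (lines, with the number of cells in parentheses); the color is log2 of the level plus 1. The GC-like classes at the top stand out in all libraries, and of the classes below them the *Gm42418*-led cells of 3′RR-*BCL2* hold the highest *Basp1*, at 99.0, against 6.39 in those of WT.

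How many of the 9 genes a GC-like cell held depended on depth and on the class. After thinning to 2000 UMIs, 287 of 400 cells (71.8%, 67.1 to 76.1) of 3′RR-*BCL2*, 154 of 235 (65.5%, 59.1 to 71.6) of Igκ-*BCL2* and 69 of 121 (57.0%, 47.7 to 66.0) of WT held at least 2 of them, and the mean was 2.42, 2.14 and 1.95 genes per cell. Thinned to 1000 UMIs, 45.6%, 34.2% and 36.6% did so, and without integration of the libraries 51.9%, 45.9% and 46.5% at 2000 UMIs. Had the genes been spread over the cells of the class independently, the product of their shares would give 75.8%, 68.2% and 62.3% of cells with at least 2. Over the 36 pairs of genes, 1072, 501 and 229 pairs were seen in 1 cell, against 1011, 466 and 197 by the product, which is 1.06, 1.07 and 1.16 times as many. In WT, *S1pr2*-rich cells held at least 2 genes in 36 of 43 cells (83.7%, 69.3 to 93.2) and dividing cells in 24 of 56 (42.9%, 29.7 to 56.8), while in 3′RR-*BCL2* the shares were 76.0% (68.3 to 82.7) and 70.1% (60.5 to 78.6).

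Outside the class at least 2 genes were seen in 336 of 5996 cells (5.60%, 5.04 to 6.22) of 3′RR-*BCL2*, 157 of 5873 (2.67%, 2.28 to 3.12) of Igκ-*BCL2* and 25 of 9633 (0.260%, 0.168 to 0.383) of WT. The products of the shares would give 2.38%, 0.840% and 0.123%. Pairs in 1 cell numbered 767, 299 and 29, against 161, 52.8 and 12 by the product, which is 4.75, 5.66 and 2.41 times as many. The excess of pairs over the product was thus larger outside the class than within it in each library. Within the class the share of cells with at least 2 genes lay below the product. The ratios are not on 1 scale, since unlike clusters with low shares are pooled outside and high shares limit the ratio within the class. Of the cells with at least 2 genes, 229 of 336 (68.2%), 88 of 157 (56.1%) and 2 of 25 (8.0%) held a UMI of *S1pr2*, *Eaf2* or *Fas*, and 235, 95 and 15 of the cells with at least 2 genes were in the largest cluster. Where *Basp1* was seen after thinning, 28.9% of the positive cells of 3′RR-*BCL2*, 27.2% of Igκ-*BCL2* and 5.41% (2 of 37) of WT held at least 2 UMIs of it, and in GC-like cells the shares were 46.2%, 48.1% and 43.9%. For *Hpse* they were 4.71%, 5.31% and 4.12% outside the class, close to each other in all 3 libraries.

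**Figure D4:**
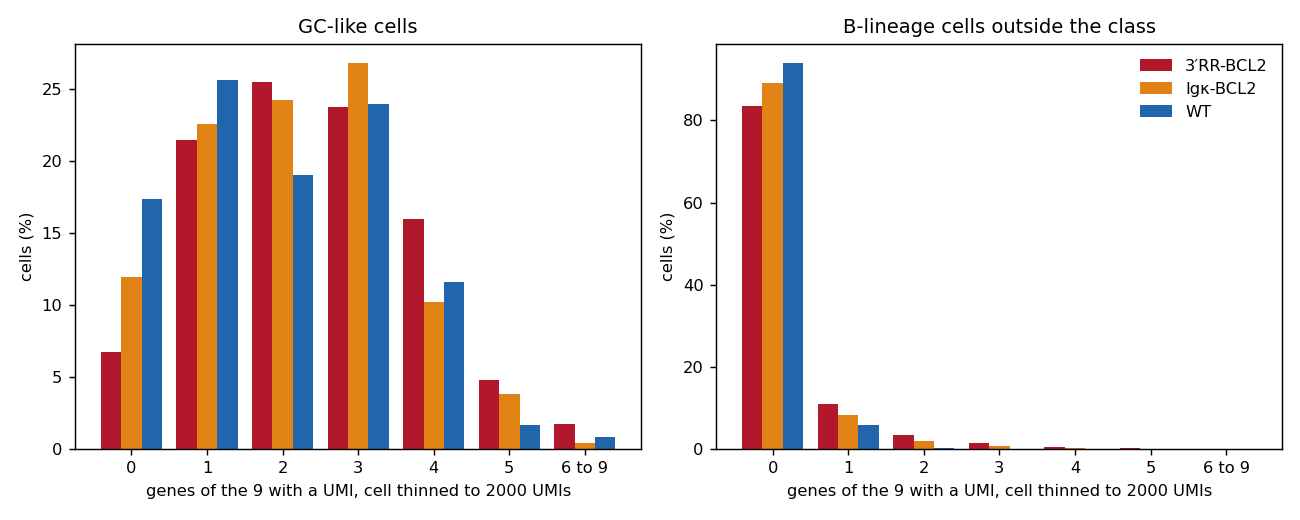
Share of cells (percent) by the number of the 9 genes with a UMI after thinning to 2000 UMIs, in GC-like cells (left) and in B-lineage cells outside the class (right; other scale) of 3′RR-*BCL2*, Igκ-*BCL2* and WT. In GC-like cells 6.75%, 11.9% and 17.4% of cells held none of the 9, and outside the class 5.60%, 2.67% and 0.260% held at least 2.

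Relatives of these genes mostly did not share their pattern, and the counts stand beside the 11.3%, 10.1% and 13.2% of all genes that were over 2-fold higher in GC-like cells. Of the 3 other MEF2 genes counted, none was over 2-fold higher in GC-like cells of any library, and *Mef2d* was lower, by log2 ratios of −0.74, −0.55 and −1.03. Of the other MYB genes *Mybl2*, a factor of dividing cells, was higher (3.71, 2.37 and 4.85). Of 8 other RGS genes, 7, 8 and 7 had at least 20 UMIs, and 2 in 3′RR-*BCL2*, 3 in Igκ-*BCL2* and 2 in WT were higher, among them *Rgs1* (2.20, 2.46 and 2.85) and *Rgs10* (2.77, 3.19 and 2.74). Of 3 genes of BASP1-like proteins, 2 had at least 20 UMIs. In each library *Marcksl1* was over 2-fold higher and *Marcks* over 2-fold lower. Of 6 other RASSF genes, 0, 1 and 0 were higher, and *Efnb2* was at 0.04 (−0.83 to 0.81), 0.24 (−1.25 to 1.43) and −0.16 (−3.23 to 1.73). *Sdc4*, which codes for a heparan sulfate carrier, was lower (−3.03, −3.05 and −2.16). Of a list of 9 other genes of the GC program, 7, 7 and 6 were higher and 1, *Lmo2*, was lower. This list holds *S1pr2*, *Eaf2* and *Fas*, which drew the class, and its genes were not kept out of the clustering. The count therefore describes the class and tests nothing. Outside the class 4 of these 9 were over 2-fold higher than WT for 3′RR-*BCL2* and 2 for Igκ-*BCL2*, beside 2.45% and 4.75% of all genes.

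The genes whose level went most closely with the mean of the 9 over 24 combinations of class and library included *S1pr2* (Pearson r 0.990), *Gxylt2* (0.986), *Tox* (0.982), *Fas* (0.980) and *Mtmr14* (0.975). These points share libraries and the step between GC-like and other cells, and *S1pr2* and *Fas* also drew the class, so that r only ranks genes here. Between pairs of the 9, r was highest for *Mybl1* and *Nuggc* (0.992) and lowest for *Hpse* and *Basp1* (0.778). Taken alone, *Hpse* was nearest to *Lipc* (0.945), the hepatic lipase gene, *Rgs13* to *Eaf2* (0.965) and *Gcsam* to *Ehf* (0.988).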

How the data were processed

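The authors deposited UMI counts, whole numbers for each gene in each called cell, which came from Cell Ranger 6.1.1 and Chromium 3′ v3.1 libraries and precede their later filters. The builds named are mm10 and hg38, and only mouse genes are in the counts. The filters followed the study. A cell needed 800 to 4500 genes and no more than 20000 UMIs, of which mitochondrial genes could make up 8% at most and ribosomal protein genes had to make up 10% or more. *Cd3* or *C1q* UMIs, if 2 or more, excluded a cell. Before clustering, the mitochondrial and ribosomal shares of a cell were regressed out. For the filter and this step, ribosomal protein genes were first taken by a pattern that missed 4 of them. It was replaced after results under it had been seen and before the new clusters were. Clustering used Seurat 5.3.0 and sctransform 0.4.2 under R 4.3.3 on 3000 features, without immunoglobulin genes, mouse *Bcl2* and the 9 genes, with 30 correlation components, 12 principal components, a resolution of 0.2 and 30 neighbors. The cluster richest in GC markers was divided with 10 components and 15 neighbors. The rule for GC-like clusters was set after they were seen, and 1 further gene it first used is not reported here. Clusters were named from marker lists by their 10 leading genes.

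Levels are summed UMIs per 1000000, computed in Python 3.11.15 (numpy 2.4.6, scipy 1.17.1, pandas 2.3.3), and a gene counted as higher or lower past 2-fold with 0.5 added to each sum, among genes with at least 20 UMIs in both groups together. Thinning drew 2000 UMIs per cell without replacement. Doublets were not removed, and Scrublet (scanpy 1.11.5) served in 1 alternative. Likeness is Pearson r of log2 levels with 5 added, over class and library combinations of at least 50 cells, for genes of at least 100 UMIs. Genes named are the 9, fixed lists of relatives and GC genes with the highest and lowest members, and the genes most alike. The 9 genes and all lists were chosen with earlier results of these data known. The intervals were tested only on simulated Poisson counts. These lack the clumping of UMIs within cells, so the simulation cannot show how well the intervals cover the spread between cells. Sequences are from RefSeq and coordinates from GENCODE, both of GRCm38.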

Additional observations from a re-analysis of the deposited data

Results flagged for a closer look

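Barcodes that the cell filters remove, of which the report uses only those with *Cd3* UMIs, held the 9 genes at high levels. In 3′RR-*BCL2* the 133 barcodes with over 20000 UMIs or over 4500 genes had 953 (922 to 985) UMIs of the 9 genes per 1000000, and the 885 barcodes that failed other filters 945 (898 to 995), against 562 in 57 and 419 in 734 barcodes of Igκ-*BCL2* and 666 in 109 and 419 in 1228 barcodes of WT. The kept cells had 299, 171 and 61.9. The deep barcodes held 21.0%, 13.7% and 32.8% of all UMIs of these genes in the 3 libraries, and *Gcsam* in WT had 166 UMIs in them, against 84 in all kept cells. Of these deep barcodes 57.1%, 43.9% and 43.1% held UMIs of at least 2 of *S1pr2*, *Eaf2* and *Fas*, against 7.94%, 4.08% and 0.775% of the kept cells. Both were counted at full depth, and such shares rise with depth, so they are not alike in this. Whether the deep barcodes are large GC cells or doublets was not tested.

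*Hpse* outside the GC-like class was above WT in 3′RR-*BCL2* (log2 ratio 0.24) and below it in Igκ-*BCL2* (−0.19), so that the 2 *BCL2* libraries went opposite ways, each from 1 library. In 3′RR-*BCL2* this direction was not stable, with 0.02 (−0.13 to 0.17) without outside cells that hold a UMI of *S1pr2*, *Eaf2* or *Fas* and −0.02 (−0.16 to 0.12) without integration. The difference between the libraries was not tested.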

How the results depend on the processing

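No paired analysis was possible because each genotype has 1 library and shares only the replicate number 1 with the others. Each list below gives 3′RR-*BCL2*, Igκ-*BCL2* and, where present, WT, for the values that moved beyond their counting interval.

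The summed log2 ratio of GC-like cells to the rest (3.41, 3.97 and 5.25) was 2.69, 2.59 and 1.24 with a class of all cells with at least 2 of 10 GC markers, and 2.62, 2.69 and 1.93 with this class and a looser cell filter. It was 4.24, 4.45 and 5.08 without integration. With a resolution of 0.4 it was 3.52 and 4.15 in the *BCL2* libraries, with the 9 genes kept among the features 3.77 and 4.18, and without the 5% of cells with the highest doublet scores 3.49 in 3′RR-*BCL2*. Without outside cells with at least 2 of 10 GC markers it was 4.73 and 5.07.

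The ratio to WT within GC-like cells (0.33 and 0.07) was 2.35 and 1.67 with the class of 2 of 10 markers, 1.82 and 1.07 with the looser filter besides, and 0.07 and −0.22 without integration. The ratio outside (2.17 and 1.36) was 0.90 and 0.33, 1.13 and 0.30, and 0.92 and 0.41 under the same 3, 1.73 and 1.17 with the 9 genes kept, 2.07 and 1.18 with a resolution of 0.4, and 0.90 and 0.31 without outside cells with 2 of 10 markers. With both classes of 2 of 10 markers the ratio to WT was thus larger within the class than outside it, the reverse of the main class. The share of thinned cells with at least 2 of the 9 genes (71.8%, 65.5% and 57.0%) was 15.3%, 9.07% and 1.59% and 17.4%, 10.2% and 2.60% for both classes of 2 of 10 markers, and 51.9%, 45.9% and 46.5% without integration. Thinning to 1000 UMIs gave 45.6%, 34.2% and 36.6%, and thinning to 4000 UMIs 94.2%, 87.4% and 76.1%.

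The other alternatives were chosen after seeing the data. With a class of cells with at least 2 of *S1pr2*, *Eaf2* and *Fas*, the ratio of GC-like cells to the rest was 3.19, 3.43 and 4.94, the ratio to WT within the class 0.04 and −0.26, that outside 1.79 and 1.25, and the share 56.5% and 53.4%. With this class and the looser filter they were 3.02, 3.36 and 4.80, 0.08 and −0.22, 1.86 and 1.22, and 57.7% and 54.3%. The first ribosomal pattern gave 3.74, 4.20 and 5.11 to the rest, 1.70 and 1.05 outside, and a share of 63.4% in 3′RR-*BCL2*. Without the dividing subcluster the ratio to the rest was 5.53 in WT, that to WT within the class 0.07 and −0.25, and the share 69.2% in WT. Without outside cells with a UMI of the 3 genes, the ratio to the rest was 4.44 and 4.62 and that outside 1.20 and 0.76.

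Single genes turned direction as well. Within the class against WT, *Mef2b* in 3′RR-*BCL2* was at −0.03 without integration and at −0.03 and −0.02 with the class of 2 of 3 genes under the stated and the looser filter, and *Gcsam* in Igκ-*BCL2* at 1.40 and 0.23 with the class of 2 of 10 markers under both. Outside it, *Hpse* in 3′RR-*BCL2* was at −0.03 and −0.01 with these 2 classes, and −0.02 without integration or without outside cells with 2 of 10 markers. *Rassf6* in Igκ-*BCL2* was there at −0.51 and −0.50, −0.20 without integration and −0.55 without outside cells with 2 of 10 markers. The direction of the 9 genes together in GC-like cells against the rest, and outside the class against WT, was the same under every alternative run, while that within GC-like cells was not. The causes of these shifts were not tested. With 1 library each, the spread between mice is unknown, and classes of 22 to 58 WT cells limit the values within GC subclusters.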
